A study of Homo sapiens with 12 samples.

Results

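The genes of the human mitochondrial genome were examined in A549 cells, an established lung carcinoma line, with and without a knockout of NFE2L1 and with and without the proteasome inhibitor bortezomib. All rows that the deposited table places on chromosome MT were taken, 37 of 58676 rows in all. They comprised 13 protein-coding genes, 2 ribosomal RNA genes and 22 transfer RNA genes. The 37 rows were not chosen by their values.

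The mitochondrial genome is a small circle that is transcribed from both strands into long precursors carrying many genes each. The tRNA sequences lie between most of the other genes, and their excision releases the individual mRNAs and rRNAs. The mRNAs encode membrane subunits of respiratory complexes I, III and IV and of ATP synthase, the 2 rRNAs form the core of the mitochondrial ribosome, and the proteins that transcribe, cut, stabilise and translate these RNAs are encoded in the nucleus.

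The 12 libraries came from 3 lines, a control line (genotype Control1) and the lines NFE2L1 KO1 and NFE2L1 KO2, each given DMSO vehicle or 200 nM bortezomib for 4 h. NFE2L1 is a transcription factor known for raising proteasome gene expression when proteasomes are blocked. Each of the 6 groups held 2 libraries. The labels do not say whether a KO line was 1 clone or whether the libraries of a group were separate cultures, so the p-values measure the spread between these libraries only, which may be technical. In the sample titles 1 library of each group carried the suffix R2. Its partner carried R1 in the KO groups and no suffix in the control groups. Libraries are named here by line, treatment and suffix, and the control libraries without a suffix are called unnumbered.

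The libraries held 13211608 to 23819258 reads assigned to genes. NFE2L1 FPKM (fragments per kilobase and library size) was 72.7 to 189 in the control line, 8.45 to 35.8 in KO1 and 18.6 to 50.8 in KO2, so the knockout lines lay below the control line in every library. The epithelial markers KRT8 (FPKM 126 to 703) and KRT18 (112 to 586) were high in every library and EPCAM (1.25 to 10.6) and CDH1 (1.42 to 9.53) were low. The leukocyte, endothelial and hepatocyte markers PTPRC, PECAM1 and ALB did not exceed an FPKM of 0.0602, and the fibroblast marker COL1A1 was at 1.42 to 23.3. In such bulk libraries a change in the number of mitochondrial genomes or cells and a change in RNA per genome or cell cannot be told apart.

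Several mitochondrial genes overlap or lie directly beside each other, and this bears on what was counted. The stretches below are given because the levels of MT-ATP8, MT-ND4L and MT-TP described further on concern them. Of the pairs of neighbours that overlap, those that share more than 3 bases are shown. MT-ATP8 and MT-ATP6 encode subunits of ATP synthase, and the first 46 bases of MT-ATP6 are the last 46 of the 207 bases of MT-ATP8. MT-ND4L and MT-ND4 encode subunits of complex I and share 7 bases in the same way. Capitals mark the shared bases. The sequences are those of the GRCh38 reference on the plus strand, at chrMT:8366-8572 for MT-ATP8 and chrMT:10707-10766 for the last 60 bases of MT-ND4L.
MT-ATP8: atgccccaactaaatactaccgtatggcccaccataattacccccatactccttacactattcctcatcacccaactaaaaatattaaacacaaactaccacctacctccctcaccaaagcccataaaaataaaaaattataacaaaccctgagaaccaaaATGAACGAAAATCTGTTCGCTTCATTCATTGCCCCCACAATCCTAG
MT-ND4L: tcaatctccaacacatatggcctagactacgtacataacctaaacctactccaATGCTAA

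The proline tRNA gene MT-TP (chrMT:15956-16023, minus strand) and the phenylalanine tRNA gene MT-TF (chrMT:577-647, plus strand) were the only tRNA rows with a read. They are the last and the first annotated genes and flank the region of the genome without annotated genes. The threonine tRNA gene MT-TT (chrMT:15888-15953, plus strand) ends 2 bases before MT-TP and had no read. The sequences are printed 5′ to 3′ on each gene's own strand, with no capitals because none is shared with a neighbour.
MT-TP: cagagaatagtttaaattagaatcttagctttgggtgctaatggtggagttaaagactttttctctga
MT-TF: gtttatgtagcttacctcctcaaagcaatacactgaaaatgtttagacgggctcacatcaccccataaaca
MT-TT: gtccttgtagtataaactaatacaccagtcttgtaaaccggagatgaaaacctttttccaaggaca

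Mitochondrial genes supplied a large part of every library, and the libraries with the suffix R2 stood apart. In the control line mitochondrial reads were 6.64% of assigned reads (unnumbered) and 12.3% (R2) with vehicle, and 6.80% and 15.6% with bortezomib. In KO1 they were 6.76% (R1) and 19.3% (R2) with vehicle and 6.001% and 17.9% with bortezomib. In KO2 they were 5.79% and 14.7% with vehicle and 5.44% and 14.4% with bortezomib. All 6 R2 libraries lay above all 6 others. The 95% binomial intervals (Wilson) of these shares were at most 0.0359 percentage points wide and cover counting error only.

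**Figure D1:**
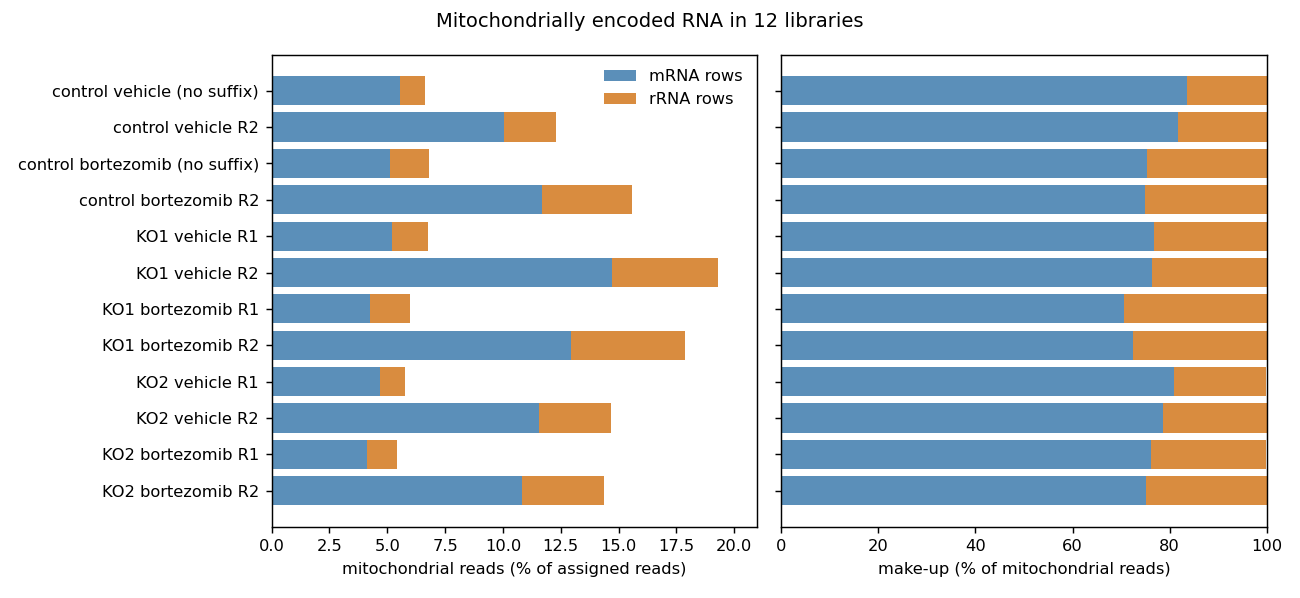
Left, mitochondrial reads as a percentage of assigned reads in each of the 12 libraries (1 bar per library), split into mRNA rows (blue) and rRNA rows (orange). Right, the same reads as a percentage of mitochondrial reads. tRNA rows (at most 0.0775% of mitochondrial reads) are too few to be seen. The R2 libraries have the longer bars on the left (12.3% to 19.3%), while on the right the orange part is longer with bortezomib (23.9% to 29.4%) than with vehicle (16.3% to 23.6%) within each line.

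The R2 libraries had 9.46 ± 2.47 percentage points (SD, n = 6 pairs) more mitochondrial reads than their partners, higher in 6 of 6 pairs. The exact two-sided sign-flip test gave p = 0.0312, the smallest that 6 pairs can give, and 0.188 after Benjamini-Hochberg adjustment over 6 measures. By FPKM all 15 mRNA and rRNA rows were higher in R2 in all 6 pairs, 2.16-fold (MT-ATP8) to 2.74-fold (MT-ND1) on average. Of the 12194 genes whose FPKM averaged 1 or more, 25.2% were higher in R2 in all 6 pairs. The make-up of the mitochondrial reads moved little in comparison. The rRNA share was 0.679 ± 1.51 percentage points higher in R2 (SD, n = 6, exact p = 0.312, adjusted 0.469). Averaged over pairs, each of these 15 rows kept between 0.864 and 1.10 times its share of mitochondrial reads. Because each group has 1 R2 library, the comparisons below are given within pairs of the same suffix, or as shares of mitochondrial reads. The labels do not say what the suffix stands for beyond a replicate.

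The 2 rRNA genes differed widely in level. MT-RNR2, the 16S rRNA of the large ribosomal subunit (chrMT:1671-3229, plus strand), had an FPKM of 5599 to 29430 and ranked between 1 and 4 among all genes in every library. MT-RNR1, the 12S rRNA of the small subunit (chrMT:648-1601, plus strand), had an FPKM of 847 to 5274. Per length, MT-RNR2 was 2.39 to 8.66 times MT-RNR1 (median 5.45), and both lie on the same strand with 1 tRNA gene between them. The smallest ratios were those of the vehicle libraries of KO2 (2.39 and 3.19), below every other library. How rRNA was removed or mRNA selected before sequencing is not given in the sources used here, so the rRNA level cannot be read as the amount in the cell.

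The 3 complex IV genes were the most abundant mRNAs. MT-CO1, the catalytic subunit of cytochrome c oxidase, had an FPKM of 9107 to 35041 and was the highest of all genes in 11 of 12 libraries. In the other one, KO1 bortezomib R1, MT-RNR2 was higher (FPKM 10309 against 9963). MT-CO2 and MT-CO3, the other core subunits of the complex, had an FPKM of 6751 to 22878 and 7170 to 25620. Together the 3 genes gave 54.6% to 63.2% of mitochondrial mRNA reads.

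The 7 complex I genes gave 25.1% to 33.1% of mitochondrial mRNA reads. MT-ND4 led them per length with an FPKM of 3301 to 11519. MT-ND1 (1424 to 6551), MT-ND2 (1493 to 7116), MT-ND3 (1091 to 4079), MT-ND4L (819 to 3812) and MT-ND5 (1111 to 4749) followed. MT-ND6, the only mRNA gene on the minus strand (chrMT:14149-14673), had an FPKM of 775 to 3009, and MT-CO1 was 10.2 to 15.7 times as high per length. MT-ND6 gave 0.764% to 1.07% of mitochondrial mRNA reads. Whether the counting used strand is not given in the sources used here, so reads of MT-ND6 and of any RNA from the opposite strand over the same bases cannot be told apart.

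MT-CYB, cytochrome b and the only mitochondrial gene of complex III, had an FPKM of 1913 to 7641. Of the ATP synthase genes, MT-ATP6 had an FPKM of 3803 to 12534, whereas MT-ATP8 had only 2.96 to 25.5. MT-ATP8 held 667 reads over all 12 libraries against 1181047 for MT-ATP6, although both are known to share a transcript. Per length MT-ATP6 was 329 to 1305 times MT-ATP8. The 161 bases of MT-ATP8 that are not in MT-ATP6 (lower case above) are about as long as the selected cDNA fragments (150 to 200 bases, per the labels). MT-ND4L, with 290 bases of its own and 7 shared ones, did not lie that low: MT-ND4 was 2.48 to 4.54 times MT-ND4L per length. Whether reads over 2 genes were dropped in the counting was not tested, so the level of MT-ATP8 is uncertain.

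**Figure D2:**
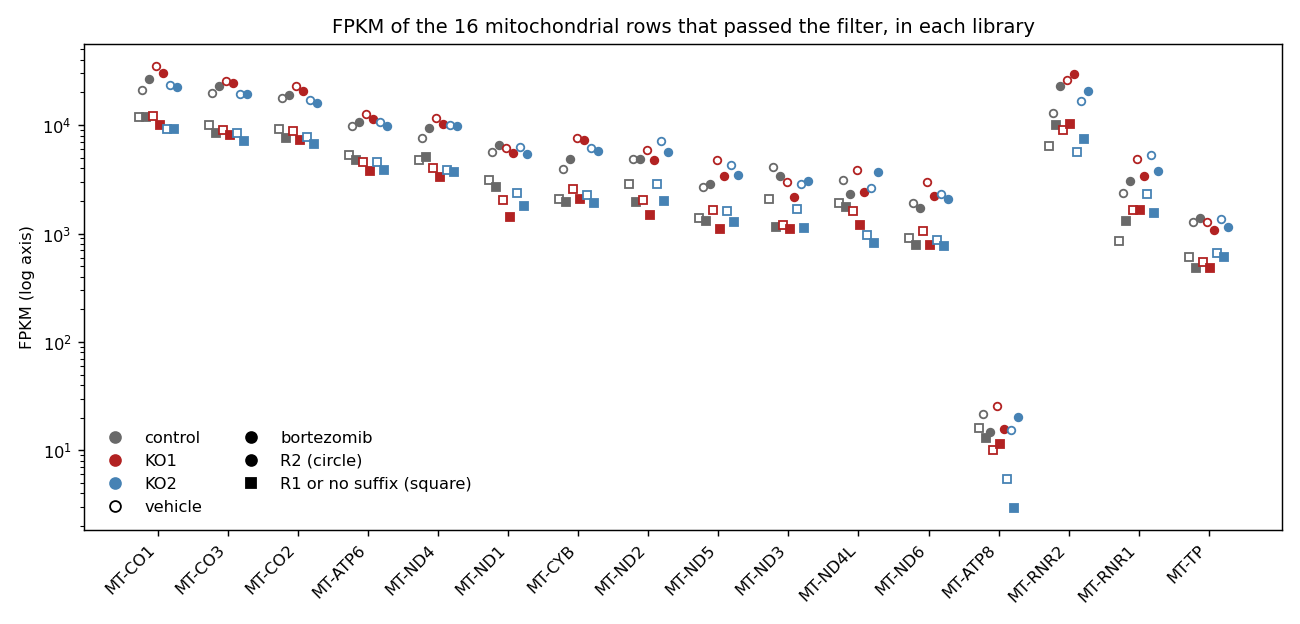
FPKM (log axis) of the 16 mitochondrial rows with a mean FPKM of at least 1, in each of the 12 libraries. Colour gives the line, open points are vehicle and filled points bortezomib, and circles are R2 libraries and squares R1 or unnumbered ones. MT-CO1 and MT-RNR2 reach 35041 and 29430, MT-ATP8 lies between 2.96 and 25.5, and for each mRNA and rRNA row the circles lie above the squares of the same line and treatment.

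Of the 22 tRNA rows, 20 had no read in any library. Each of those 20 has an annotated gene on both sides, at most 31 bases away. For a gene of 70 bases, a count of 0 allows up to 3 reads, an FPKM of 1.80 to 3.24 depending on the library. MT-TP had 433 to 1792 reads (FPKM 478 to 1388), more than the other 21 tRNA rows together. MT-TF had 10 reads in all and at most 3 in a library. The tRNA share was 0.0406% to 0.0775% of mitochondrial reads and was made of MT-TP almost alone. The labels state that fragments of 150 to 200 bases were preferred, which is longer than any tRNA gene here (59 to 75 bases), and what these rows hold of mature tRNA was not tested. MT-TP, the threonine tRNA MT-TT beside it and MT-CYB are close neighbours, and a read that spans 2 genes could be assigned to either or to none.

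The nuclear genome holds copies of mitochondrial genes, and 392 rows outside chromosome MT were named as such. They took 0.305% to 0.541% as many reads as the mitochondrial rows, and 7 had a mean FPKM of at least 1. MTATP6P1 (chr1:633696-634376), a copy that matches MT-ATP6 at 671 of 681 bases (98.5%), held 69.6% to 79.0% of those reads. Its FPKM was 211 to 881, and its reads were 4.74% to 8.41% of those of MT-ATP6. MTND2P28, MTCO1P12 and MTCO3P12, which lie beside it, were at 17.3 to 68.3, 11.6 to 72.8 and 1.61 to 12.9. How reads that match both places were assigned is not given in the sources used here, so the levels of MT-ATP6 and its copy are uncertain.

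The first comparison asked what bortezomib did to mitochondrial RNA. The make-up of the mitochondrial reads shifted from mRNA to rRNA in every pair, and the 16S rRNA MT-RNR2 held most of the gain. The rRNA share of mitochondrial reads went from 16.3% to 24.7% (unnumbered) and from 18.2% to 25.0% (R2) in the control line. In KO1 it went from 23.1% to 29.4% (R1) and from 23.6% to 27.5% (R2). In KO2 it went from 18.9% to 23.9% (R1) and from 21.3% to 24.8% (R2).

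The rRNA share was 5.61 ± 1.86 percentage points higher with bortezomib (SD, n = 6 pairs, higher in 6 of 6). The mRNA share had a mean difference of -5.60 ± 1.86 percentage points, since the classes sum to the whole. The tRNA share, nearly all MT-TP, had one of -0.00682 ± 0.00542 percentage points, lower in 6 of 6 pairs. In the R1 pair of KO1 it went from 0.0556% to 0.0546%, and in that of KO2 from 0.0775% to 0.076%. The Wilson intervals, which cover counting error only, overlapped in both of these pairs and in none of the others. The 6 of 6 for tRNA, and the p-value that follows, thus rest in part on differences within counting error. For each of the mRNA, rRNA and tRNA shares the exact sign-flip test gave p = 0.0312, the smallest 6 pairs can give, and 0.0469 after Benjamini-Hochberg adjustment over 6 measures. The mRNA and rRNA shares mirror each other but entered the adjustment as separate measures, so passing the threshold depends on counting both. With tRNA rows left out of the denominator the rRNA difference was 5.61 percentage points and the adjusted p 0.0521, because 1 measure fewer entered the adjustment.

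MT-RNR2 made up 15.1% and 16.4% of mitochondrial reads in the control vehicle libraries and 22.9% and 23.1% with bortezomib. In KO1 its share was 20.8% and 21.2% with vehicle and 26.8% and 25.7% with bortezomib. In KO2 it was 15.1% and 17.9% with vehicle and 21.2% and 22.3% with bortezomib. Within each line both bortezomib libraries lay above both vehicle libraries. The mean ratio of shares was 1.34-fold (log2 0.42 ± 0.12, SD, n = 6).

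MT-RNR1 did not follow it. Its share was 1.22% and 1.83% in the control vehicle libraries and 1.82% and 1.86% with bortezomib. In KO1 it was 2.35% and 2.43% with vehicle and 2.64% and 1.81% with bortezomib, higher in 1 pair and lower in the other. In KO2 it was 3.85% and 3.42% with vehicle and 2.70% and 2.51% with bortezomib, lower in both pairs. The ratio of 12S to 16S reads was lower with bortezomib in 6 of 6 pairs, with a mean difference of -0.0495 ± 0.0469 (SD, exact sign-flip p = 0.0312, adjusted 0.0469). The differences ranged from -0.128 in KO2 to -0.000797 in the unnumbered control pair, so they were very unequal. In that control pair the ratio was 0.0805 with vehicle and 0.0797 with bortezomib, and the counting error of the ratio was not computed. The 6 of 6 for the ratio, and its p-value, thus rest in part on the sign of a very small difference. The adjusted p of the ratio also depends on counting the mRNA and rRNA shares as separate measures.

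**Figure D3:**
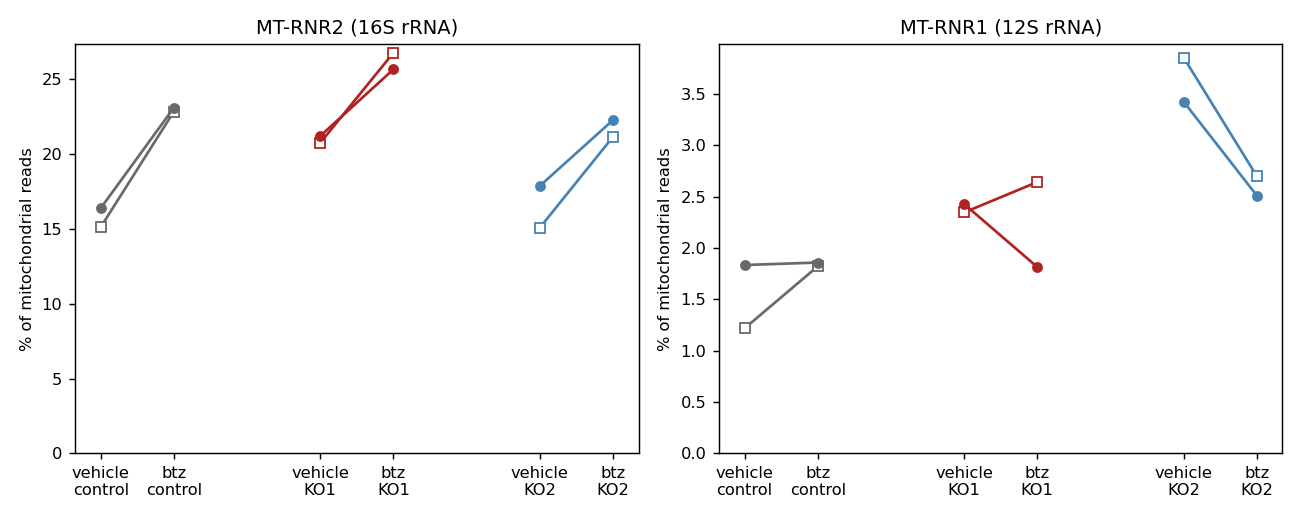
Share of mitochondrial reads (%) of the 16S rRNA MT-RNR2 (left) and the 12S rRNA MT-RNR1 (right) with vehicle and with bortezomib (btz), joined by a line for each pair of libraries; filled circles are R2 pairs and open squares R1 or unnumbered pairs. All 6 lines rise for MT-RNR2, whereas for MT-RNR1 both KO2 lines fall and the KO1 lines cross.

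The share of mitochondrial reads in the whole library did not move in 1 direction. It was higher with bortezomib in 2 of 6 pairs, both of the control line, and lower in the 4 KO pairs, with a mean difference of 0.105 ± 1.65 percentage points (SD, n = 6, exact p = 0.969). Without the R2 control pair, whose difference was the largest (3.30 percentage points), the mean was -0.533.

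As shares of mitochondrial reads, 6 of the 13 mRNAs were lower with bortezomib in all 6 pairs and none was higher in all 6. These were MT-ND2 (0.783-fold on average), MT-ND5 (0.821), MT-ND6 (0.837), MT-ND1 (0.865), MT-CO2 (0.905) and MT-ATP6 (0.915). The count of 6 has no background, since other genes have no share of mitochondrial reads. A larger rRNA share lowers every mRNA share, so the shares were also taken within mitochondrial mRNA reads, a choice made after seeing the data. MT-ND2 is described first. In the control line its share of mitochondrial reads was 4.50% (unnumbered) and 4.13% (R2) with vehicle and 3.02% and 3.25% with bortezomib. In KO1 it was 3.12% and 3.15% with vehicle and 2.59% and 2.77% with bortezomib. In KO2 it was 5.19% and 5.05% with vehicle and 3.82% and 4.13% with bortezomib. Within each line both bortezomib libraries lay below both vehicle libraries. Within mRNA reads MT-ND2 alone remained lower in all 6 pairs (0.842-fold, log2 -0.25 ± 0.12, SD, n = 6). MT-ND4 alone was higher in all 6, by 1.06-fold (log2 0.08 ± 0.07).

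The 7 complex I genes together took a smaller part of mitochondrial mRNA reads with bortezomib in 6 of 6 pairs, with a mean difference of -1.52 percentage points. The 3 complex IV genes took a larger part in 6 of 6, with a mean difference of 1.53 percentage points. The parts sum to the whole, so these differences are not independent. Singly, within mRNA reads, MT-CO1 was higher in 5 of 6 pairs, MT-CO3 in 4 and MT-CO2 in 3. The parts of complex III (4 of 6 higher) and ATP synthase (2 of 6 higher) went both ways. MT-ND6, from the opposite strand, had a mean difference of -0.0976 ± 0.0903 percentage points in its part of the mRNA reads (SD, n = 6, lower in 5 of 6, exact p = 0.0625, adjusted 0.075) and did not pass the threshold.

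**Figure D4:**
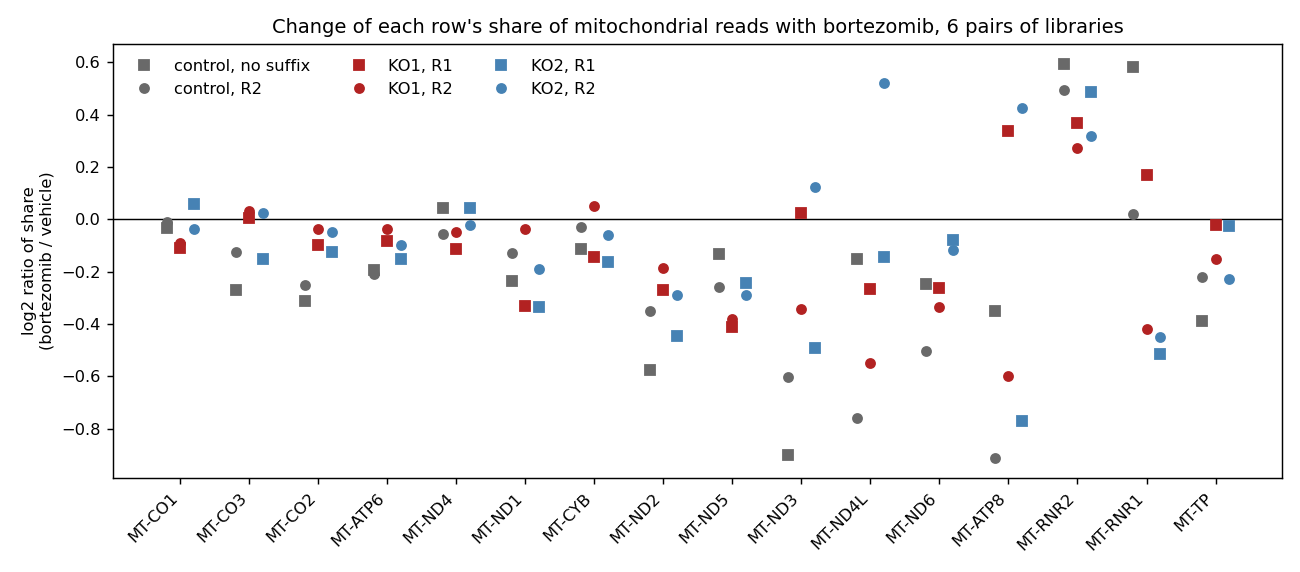
Log2 ratio (bortezomib over vehicle) of each row's share of mitochondrial reads, 1 point for each of the 6 pairs of libraries; colour gives the line, circles R2 pairs and squares R1 or unnumbered pairs. All 6 points of MT-RNR2 lie above 0 (0.28 to 0.60), all 6 of MT-ND2 and MT-ND5 lie below 0, and the points of MT-ND3, MT-ND4L, MT-ATP8 and MT-RNR1 scatter across 0.

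By FPKM the changes were small beside the difference between suffixes. MT-RNR2 was higher with bortezomib in all 6 pairs (1.34-fold), and among the 12194 genes tested 24.8% were higher in all 6. MT-ND2 (0.781-fold) and MT-ND6 (0.835-fold) were lower in all 6 pairs, and 23.8% of the genes tested were. A count of 1 and 2 of 15 rows is below those shares. The 13 mRNAs ranged from 0.775-fold (MT-ND3) to 0.980-fold (MT-ND4).

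The FPKM of all genes was tested with limma on log2(FPKM + 1), a scale on which changes of low genes are understated. Calls were made at a Benjamini-Hochberg adjusted p under 0.05 over all genes tested. In the fit without a replicate term, 0 of the 16 mitochondrial rows tested were called for bortezomib in the control line, in KO1, in KO2 or averaged over the lines, where 0.467%, 0.238%, 0.32% and 11.6% of all genes were called. None of the 16 had an unadjusted p under 0.05, against 12.3%, 9.46%, 9.59% and 26.9% of all genes. The median log2 fold change averaged over the lines was -0.16 for the 16 rows and -0.01 for all genes.

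The suffixes pair the libraries, and with the suffix as a block the calls changed. Averaged over the lines, limma then called 5 of the 16 rows, against 54.9% of all genes, so the members' share was below the background. MT-RNR2 was higher (log2 0.42, SE 0.08, adjusted p = 0.00179). The complex I genes MT-ND2 (-0.36, SE 0.10, adjusted p = 0.0132), MT-ND3 (-0.37, SE 0.12, 0.0271), MT-ND5 (-0.29, SE 0.08, 0.0141) and MT-ND6 (-0.26, SE 0.08, 0.0193) were lower. MT-RNR2 kept its call without each of the 12 libraries in turn, with a limma adjusted p of 0.00181 to 0.0136. MT-ND2 kept it without 11 of the 12 (adjusted p = 0.0553 without KO2 vehicle R1), MT-ND5 without 9, and MT-ND3 and MT-ND6 without 6 each (highest limma adjusted p 0.103 and 0.0723). When R1 and unnumbered libraries shared a block level, 3 of the 16 rows were called, against 54.9% of all genes. MT-RNR2, MT-ND2 and MT-ND3 were among them, and MT-ND5 (limma adjusted p = 0.0531) and MT-ND6 (0.0525) were not. In the other 8 mRNAs, leaving out MT-ATP8, log2 changes ranged from -0.23 (MT-ND4L) to -0.03 (MT-ND4) and were not called.

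Line by line the blocked fit called 1 row in the control line, MT-RNR2 (log2 0.73, SE 0.14, limma adjusted p = 0.00427), where 32.4% of all genes were called. In KO1 it called 2, MT-ND5 (-0.54, SE 0.14, adjusted p = 0.0219) and MT-ND6 (-0.44, adjusted p = 0.0406), where 27.7% were called. In KO2 it called MT-RNR1 (-0.54, SE 0.17, adjusted p = 0.0409), where 27% were called. Both calls in KO1 were lost without any 1 of the 4 KO1 libraries, and MT-ND6 also without any 1 of the 4 KO2 libraries. The call in KO2 was lost without any 1 of the 4 KO2 libraries or either KO1 bortezomib library. With the shared block level, limma still called MT-RNR2 in the control line (adjusted p = 0.0207), where 32.5% of all genes were called. It called 0 rows in KO1 (MT-ND5 0.0684, MT-ND6 0.0915) and 0 in KO2 (MT-RNR1 0.0509), where 27.9% and 27% of genes were called. MT-RNR2 was 0.18 in KO1 and 0.34 in KO2 on the log2 scale and was not called there (limma adjusted p = 0.352 and 0.0943).

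The second comparison set the knockout lines against the control line, within treatment and suffix. The unnumbered control libraries were set beside R1, which the labels do not state. The 2 KO lines shared some differences from the control line and parted in others. Over both lines together, the rRNA share of mitochondrial reads was 3.02 ± 1.71 percentage points higher than in the control line (SD, n = 4 strata, higher in 4 of 4). The exact test over the 81 possible choices of the control library gave p = 0.0988, adjusted 0.198. The 4 strata repeat the same 3 lines. With 1 control line, neither this test nor that of MT-ND6 below can tell a knockout effect from another difference between lines. KO1 was higher by 2.52 to 6.76 percentage points in all 4 strata, whereas the differences of KO2 were 2.60 and 3.08 with vehicle and -0.811 and -0.180 with bortezomib.

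MT-ND6 took a larger part of mitochondrial mRNA reads in the KO lines. It took 0.853% and 0.994% in the control vehicle libraries and 0.798% and 0.764% in the control bortezomib libraries. KO1 had 1.06% and 1.07% with vehicle and 0.963% and 0.897% with bortezomib, and KO2 had 0.975%, 1.05%, 0.984% and 1.02%. Each KO library was above the control library of its stratum. The mean difference was 0.151 ± 0.0556 percentage points (SD, n = 4, higher in 4 of 4). The exact p was 0.0123, the smallest that 4 strata can give, and 0.0741 after adjustment over 6 measures, so it did not pass the threshold.

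Some single genes differed from the control line in the same direction in both KO lines, and others did not. MT-CYB had a larger share of mitochondrial reads in both lines in all 4 strata, 1.24-fold in KO1 (log2 0.31 ± 0.06, SD, n = 4) and 1.27-fold in KO2 (0.34 ± 0.04). Its shares were 3.28% to 3.63% in the 4 control libraries and 3.93% to 4.74% in the 8 KO libraries, with no overlap. MT-ND1 had a smaller share in both lines in all 4 strata, 0.664-fold in KO1 (-0.59 ± 0.13) and 0.884-fold in KO2 (-0.18 ± 0.08). MT-ND2 went in opposite directions, 0.788-fold in KO1 (-0.34 ± 0.15) and 1.23-fold in KO2 (0.29 ± 0.07), each in 4 of 4 strata. Its share was 2.59% to 3.15% in KO1, 3.02% to 4.50% in the control line and 3.82% to 5.19% in KO2, so KO1 and KO2 did not overlap.

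Within mitochondrial mRNA reads, where the rRNA share plays no part, MT-CYB was 1.32-fold in KO1 (log2 0.41 ± 0.04, SD, n = 4) and 1.29-fold in KO2 (0.36 ± 0.07), higher in 4 of 4 strata in each. MT-ND5 was 1.14-fold in KO1 and 1.32-fold in KO2, and MT-ND6 1.17-fold and 1.19-fold, also higher in 4 of 4 in each. MT-ND1 was 0.708-fold and 0.897-fold, lower in 4 of 4 in each. MT-ND2 again parted the lines, 0.840-fold in KO1 and 1.24-fold in KO2. MT-CO1 did so too, 1.06-fold in KO1 and 0.934-fold in KO2, each in 4 of 4 strata.

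As shares of all mitochondrial reads, MT-ND5 was 1.30-fold in KO2 (0.38 ± 0.06, higher in 4 of 4) and 1.07-fold in KO1 (higher in 3 of 4). MT-RNR2 was 1.23-fold in KO1 (0.30 ± 0.14, higher in 4 of 4) and 0.993-fold in KO2 (higher in 1 of 4). MT-RNR1 was 1.85-fold in KO2 (0.89 ± 0.55, higher in 4 of 4) and 1.38-fold in KO1 (higher in 3 of 4). Both lines were compared with the same 4 control libraries, and these shares carry no test of their own. Of the 13 mRNAs, 2 had a larger and 6 a smaller share in KO1 in all 4 strata, and 4 a larger and 2 a smaller share in KO2. These counts have no background, since other genes have no share of mitochondrial reads.

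**Figure D5:**
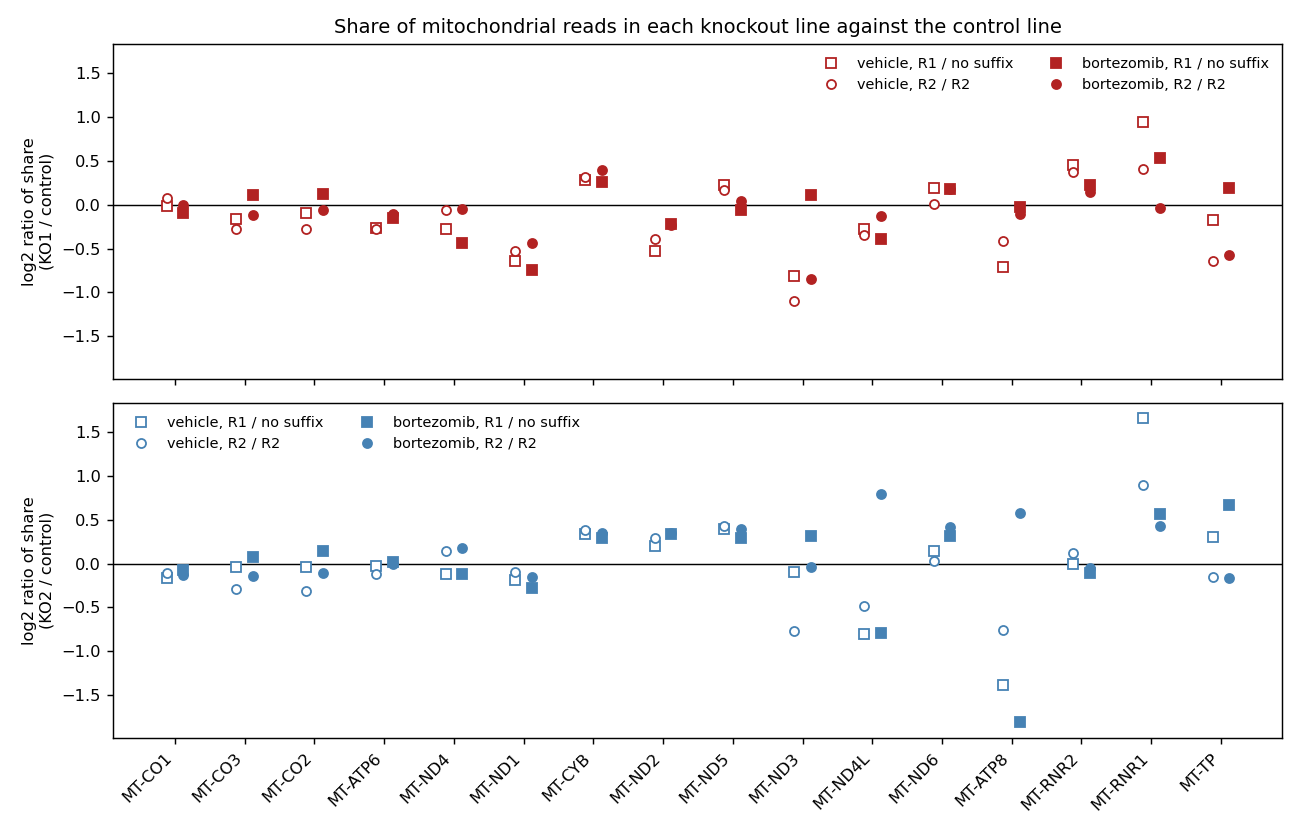
Log2 ratio of each row's share of mitochondrial reads in KO1 (top) and KO2 (bottom) over the control library of the same treatment and suffix (R1 over unnumbered), 4 points per row; open points are vehicle, filled ones bortezomib, circles R2. MT-CYB lies above 0 in both panels (0.26 to 0.40), MT-ND2 lies below 0 in KO1 and above 0 in KO2, and MT-ATP8, with few reads, scatters most (down to -1.82).

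By FPKM limma without a block called 0 of the 16 rows for KO1 with vehicle, KO2 with vehicle, KO1 with bortezomib and KO2 with bortezomib, where 0.213%, 0.23%, 0.107% and 0.0656% of all genes were called. None had an unadjusted p under 0.05, against 4.41%, 3.55%, 5.5% and 3.91% of all genes. The block by suffix compares KO and control mostly within R2, since the unnumbered libraries have a level of their own. With it limma called 4 rows for KO1 with vehicle, all higher. They were MT-RNR2 (log2 0.96, SE 0.16, adjusted p = 0.0103), MT-RNR1 (0.97, SE 0.20, 0.0228), MT-ND5 (0.76, SE 0.16, 0.0299) and MT-CYB (0.88, SE 0.19, 0.0301), and 5.95% of all genes were called. The R2 library of KO1 with vehicle had the highest mitochondrial share of all (19.3%). Without that library, or without the R2 control vehicle library, 0 rows were called in the blocked fit. Over all 12 fits that left out 1 library, MT-RNR2 was called in 9, MT-RNR1 in 8, MT-CYB in 4 and MT-ND5 in 3, with highest limma adjusted p of 0.211, 0.188, 0.452 and 0.372. For KO2 with vehicle the block called MT-RNR1 (1.27, SE 0.20, limma adjusted p = 0.00751), where 4.91% of genes were called. That call was lost without the R2 library of either group. It called 0 rows for KO1 and KO2 with bortezomib, where 7.54% and 4.81% were called. An unadjusted p below 0.05 was reached by 3 and 0 rows, and by 23.4% and 20.1% of all genes. When R1 and unnumbered libraries shared a block level, 1 row was called for each of the vehicle comparisons, MT-RNR1 in both (limma adjusted p = 0.0097 for KO1 and 0.00279 for KO2), and 7.96% and 4.89% of all genes were called.

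The third comparison was whether the bortezomib difference itself changed with the knockout. In the interaction of the mean KO effect with bortezomib limma called 0 of the 16 rows and 0% of all genes without the block, and likewise 0 rows and 0% with it. Without the block 115 genes (0.943%), none of them mitochondrial, had an unadjusted p under 0.05, and with it 1305 (10.7%) had. With the block 3 rows had an unadjusted p under 0.05. MT-RNR1 had the largest difference, log2 -0.89 (SE 0.20, adjusted p = 0.169). Its FPKM in the control line was 847 and 2367 with vehicle and 1299 and 3041 with bortezomib. In KO1 it was 1661 and 4909 with vehicle and 1662 and 3400 with bortezomib, so only the R2 pair fell. In KO2 it was 2338 and 5274 with vehicle and 1538 and 3784 with bortezomib. MT-RNR2 (-0.47, adjusted p = 0.342) and MT-ND5 (-0.42, adjusted p = 0.415) were the others. With voom, limma's model for reads, and the block, 1 row was called (adjusted p = 0.0403), and 0.943% of all genes were.

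Nuclear genes that act on mitochondrial RNA and DNA were taken as 7 lists (transcription, RNA cleavage and granules, RNA stability and decay, rRNA modification and ribosome assembly, translation factors, genome maintenance and nuclear regulators). Of these genes 67 were tested. Without the block limma called 0 for bortezomib averaged over the lines, and 5 had an unadjusted p under 0.05. Of all genes 11.6% were called in that fit and 26.9% had such a p. With the block 17 were higher and 14 lower, 31 of 67 against 54.9% of all genes, and the median log2 fold change was -0.01, as for all genes. In the transcription list 1 of 9 was called higher and 3 lower. RNA stability had 3 of 7 higher and 0 lower, rRNA modification and assembly 2 higher and 2 lower of 10, cleavage and granules 2 and 3 of 12, translation factors 2 and 2 of 11, genome maintenance 5 and 4 of 13, and nuclear regulators 2 and 0 of 5.

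POLRMT, the mitochondrial RNA polymerase, was lower (log2 -0.41, SE 0.10, limma with the block, adjusted p = 0.00601). Its FPKM was 16.9 to 24.3 in the 6 vehicle libraries and 11.7 to 18.1 in the 6 bortezomib libraries. TFAM, which packages the mitochondrial genome and starts its transcription, was not called (-0.21, SE 0.10, adjusted p = 0.113), with an FPKM of 10.0 to 19.9. LRPPRC, which stabilises mitochondrial mRNAs, was higher (0.45, SE 0.09, adjusted p = 0.00196). GABPB1, a subunit of a nuclear regulator of respiratory genes, rose most (0.86, SE 0.08, adjusted p = 3.75e-05), from FPKM values of 0.671 to 2.70 with vehicle to 2.12 to 6.64. SUPV3L1, the helicase of the mitochondrial RNA decay machinery, rose by 0.61 (SE 0.08, adjusted p = 0.000316) and RRM2B, a ribonucleotide reductase subunit that supplies DNA precursors, by 0.57 (SE 0.09, adjusted p = 0.000786). All 6 of these genes are encoded in the nucleus and were not called without the block. For KO1 and KO2 against the control line with vehicle the blocked fit called 0 of the 67, where 5.95% and 4.91% of all genes were called. An unadjusted p under 0.05 was reached by 6 and 5 of the 67, and by 21.7% and 19.1% of all genes. With bortezomib it called 1 higher and 1 lower in each KO line, where 7.54% and 4.81% of all genes were called. When R1 and unnumbered libraries shared a block level, limma called 3 higher and 5 lower for KO1 with bortezomib, and 1 and 2 for KO2. Over 6 blocked fits 7.09% to 12.8% and 4.25% to 8.66% of all genes were called in these contrasts. With vehicle the shared level called 1 lower for KO1 and 0 for KO2, against 7.96% and 4.89% of all genes.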

How the data were processed

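RNA was sequenced from 12 A549 libraries. The authors deposited FPKM per gene with gene lengths. CASAVA, STAR 2.5, HTSeq 0.6.1, DESeq2 and the build hg19 are named, without settings, per the submitters' processing notes. The deposited positions matched GENCODE 29 (GRCh38) in 95.29% of rows and in all 37 mitochondrial rows, and coordinates and sequences are given on GRCh38. FPKM times length gave whole reads in 100% of values (within 0.1 read), from which depth and shares of reads were computed. Groups were taken from the labels.

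Genes whose FPKM averaged 1 or more (12194, among them 13 mRNA, 2 rRNA and 1 tRNA rows of the mitochondrial genome) were fitted with limma 3.58.1 in R 4.3.3 on log2(FPKM + 1), with all 12 libraries, a mean-variance trend and no replicate term. Since the deposited values are FPKM, no count model was the main test. Shares of reads were compared by exact permutation tests over pairs or strata of libraries, two-sided, with Benjamini-Hochberg adjustment over 6 measures within each comparison. A floor of 3 reads was used where a row had none, and intervals are 95% Wilson intervals.

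The suffix in the titles was checked as a pairing. The replicate differences of 15 pairs of groups correlated across genes with r of 0.696 to 0.89 (median 0.811, genes are not independent replicates), so values with the block are given where they change a call. Alternatives were the block, other pseudocounts (0.1), filters and scalings, voom on recovered reads, shares of summed FPKM and leaving out each library. Shares within mRNA reads and leaving out libraries in the blocked fit were chosen after seeing the data. The fits and exact tests were tested on simulated data.

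The members and lists were chosen with earlier results of these data known. All mitochondrial rows were described, and of the nuclear lists POLRMT, TFAM, LRPPRC and the 3 called genes with the largest change for bortezomib in the blocked fit were named. Nuclear copies were taken by symbol and the 4 with the highest mean FPKM named. Shares and exact tests were computed in Python 3.11.15.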

Additional observations from a re-analysis of the deposited data

Results flagged for a closer look

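In 9 results the bortezomib difference had one sign in both control pairs and the opposite sign in both pairs of a KO line. The share of all genes with such opposite signs is not given here, so the count has no background. For the mitochondrial share of assigned reads the control line had a difference of 1.73 percentage points, KO1 of -1.09 and KO2 of -0.331, so the KO lines differed from the control line by -2.82 and -2.06. The control difference was 0.165 in the unnumbered pair and 3.30 in the R2 pair. For MT-RNR1 the bortezomib difference in KO2 lay -1.03 from that of the control line by log2 FPKM and -0.781 by log2 share of mitochondrial reads. For MT-CO1 the log2 FPKM differences from the control line were -0.407 in KO1 and -0.216 in KO2, and for MT-ND4 they were -0.405 and -0.232. In the unnumbered control pair the FPKM of MT-CO1 was nearly equal, 11978 with vehicle and 12000 with bortezomib. For MT-CO3 in KO1 the log2 share differed by 0.215. These differences between single lines were not tested. For the mean of both KO lines limma's interaction called none of these genes by FPKM. With voom on recovered reads and the block, the interaction called 1 mitochondrial row (adjusted p = 0.0403), which is not named here, and 0.943% of all genes. With 2 pairs in a line, opposite signs can also arise from the spread between libraries.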

How the results depend on the processing

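Without a block, limma called 0 mitochondrial rows in 9 contrasts under all 18 settings, 12 of which left out 1 library each (smallest adjusted p with all libraries 0.115). The replicate block by suffix called 1, 2, 1 and 5 rows for bortezomib in the control line, KO1, KO2 and their mean and 4 and 1 for KO1 and KO2 with vehicle. The block in which unnumbered libraries count as R1 called 1, 0, 0, 3, 1 and 1, where 32.5%, 27.9%, 27%, 54.9%, 7.96% and 4.89% of all genes were called. With the block, a pseudocount of 0.1 gave 2, 2, 1, 5, 5 and 1, scaling to reads outside the mitochondrial genome 2, 2, 1, 5, 5 and 1, and voom 3, 3, 1, 5, 7 and 3, with 1 for the interaction; quantile normalization gave 3 for the mean and 0 elsewhere. Over these 6 blocked fits 32.3% to 37.9%, 27.2% to 32.9%, 26.3% to 32.4%, 54.6% to 58%, 5.83% to 9.83% and 4.31% to 8.52% of all genes were called. The pairing behind the block is that of the title suffix. Leaving out 1 library was done with and without the block. In the blocked fits MT-RNR2 then changed with bortezomib by log2 0.631 to 0.838 in the control line. Averaged over the lines its change was 0.385 to 0.454. Leaving out 1 library without the block leaves a group with 1 library, assumed to vary like the others, and then compares an R2 library with one of another suffix. Log2 changes then ranged, with and without the block, for bortezomib in KO1 from -1.20 to 0.323 (MT-ND6) and -1.34 to 0.266 (MT-ND5), for bortezomib in KO2 from -1.19 to 0.108 (MT-RNR1), and for KO1 with vehicle from -0.148 to 1.43 (MT-CYB), -0.226 to 1.29 (MT-ND5) and -0.0212 to 1.52 (MT-RNR2). Summed FPKM in place of reads gave bortezomib differences of -0.655 percentage points in the mitochondrial share (adjusted p 0.625), -4.22 in mRNA and 4.29 in rRNA share (0.0625 each), -0.0764 in tRNA share (0.112) and -0.081 in the 12S to 16S ratio (0.0625). Without tRNA rows the mRNA and rRNA differences were -5.61 and 5.61 (0.0521). Dropping 1 pair gave -0.533 to 0.409 for the mitochondrial share, -6.03 to -5.06 for mRNA, 5.06 to 6.03 for rRNA, -0.00799 to -0.00522 for tRNA and -0.0593 to -0.0339 for the ratio; 5 pairs cannot give an exact p under 0.05. For the KO lines dropping 1 stratum gave -0.312 to 1.61 for the mitochondrial share and -0.00844 to 0.00281 for the tRNA share, the mitochondrial share changing sign without the R2 vehicle libraries and the tRNA share without the R2 libraries of either treatment.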
